A study of Mus musculus with 8 samples.

Results

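The cytoplasmic ribosomal protein genes were followed in kidneys of mouse embryos whose mothers had or had not received chlorpyrifos, an organophosphate insecticide. Members were the genes whose symbols begin with Rpl or Rps followed by a number and at most 1 further letter a, x, y or l, together with Rpsa, Rplp0, Rplp1 and Rplp2. The rule uses symbols and no measured value. The rule found 82 genes of 24151 in the tables, 50 of the large and 32 of the small subunit, and each gene's transcripts were summed. The CPF group came from pregnant ICR mice of 8 weeks given chlorpyrifos in dimethyl sulfoxide at 5 mg/kg under the skin daily on gestation days 7.5 to 11.5. The DMSO group came from mothers of the same strain and age given an equal volume of the solvent on the same days, so both groups had received the solvent. Kidneys were taken on embryonic days E12.5 and E14.5 and then on E16.5 and E18.5, and each agent had 1 RNA-seq library per stage, 8 in all. The labels do not say how many embryos or litters went into a library.

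A ribosome is built from ribosomal RNA and many proteins, and most of these proteins are needed in equal amounts. In mammals their messages begin with a run of pyrimidines at the 5′ end, the TOP motif, through which the mTOR pathway sets their translation. Several members have further roles: Rpl5 and Rpl11 bind Mdm2 when ribosome assembly fails, and RPS19 is the gene most often mutated in the human disorder Diamond-Blackfan anaemia. Ribosome production is high in growing embryonic tissue, the kidney included. Most members also have many processed pseudogenes, copies of the message pasted back into the genome, whose transcripts can share reads with the gene.

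The values are TPM as the authors deposited them, transcript abundances scaled by transcript length and by the library total. All 10 kidney markers (Pax2, Wt1, Six2 and others) were above 0 in every library, with sums of 234 to 368 TPM in CPF libraries and 260.4 to 634 TPM in DMSO libraries. The libraries also differed in other tissues' markers. The sum of 8 liver markers was 177, 4455, 5096 and 804 TPM in CPF libraries in stage order (E12.5, E14.5, E16.5, E18.5), against 13.1, 881, 60.7 and 37.8 TPM in DMSO libraries. The sum of 9 erythroid markers ran between 16.0 and 36696 TPM in CPF libraries and between 44.7 and 8036 TPM in DMSO libraries, with Hba-a1 and Hbb-bt listed at 0 in all 8. The RNA genes Rpph1 and Rmrp together took 19.3 to 21.8% of TPM in CPF libraries and 19.6 to 41.8% in DMSO libraries. Gapdh, which all cells use, was listed at 0 to 0.926 TPM, so a value of 0 in these tables can be a failed estimate. Read depth is not given; from the spacing of the lowest values, 1 read in a transcript of 1 kb was worth about 0.0608 to 0.105 TPM, although only 48.8 to 57.1% of low values were whole multiples of that step within 0.02.

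Sequences around the annotated starts are shown for some of the members that have a pyrimidine run there, as in the TOP motif. Most members had no such run at the annotated start by the count given below. RefSeq promoter entries on GRCm38.p6 were found for 61 of the 82 members. In the 80 bases printed here, 60 before the start and 20 from it, capitals mark a pyrimidine run that begins with C at the start position, or the motif CCGGAAG on either strand, the core bound by ETS factors such as Gabpa.
Rps6, chr4:86857348-86857427, minus strand: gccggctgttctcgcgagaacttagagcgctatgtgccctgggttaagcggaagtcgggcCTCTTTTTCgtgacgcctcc
Rps18, chr17:33955646-33955725, minus strand: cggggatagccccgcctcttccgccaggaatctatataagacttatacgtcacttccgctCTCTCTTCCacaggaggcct
Rps10, chr17:27635225-27635304, minus strand: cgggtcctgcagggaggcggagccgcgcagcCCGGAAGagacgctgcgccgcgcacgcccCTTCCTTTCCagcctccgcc
Rpl15, chr14:18270967-18271046, minus strand: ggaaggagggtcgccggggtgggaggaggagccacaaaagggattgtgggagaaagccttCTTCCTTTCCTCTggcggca
Rpl38, chr11:114668520-114668599, plus strand: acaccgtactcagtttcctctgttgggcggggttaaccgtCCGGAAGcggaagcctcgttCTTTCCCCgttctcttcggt
A C at the start followed by at least 4 further pyrimidines stood in 13 of the 61 promoters (21.3%), against 2.49% of all 27025 promoters of the same table. In the full 300 bases, CCGGAAG on either strand stood in 24 (39.3%), against 9.12% of all. CTTTCC on the sense strand, which can overlap the pyrimidine run, stood in 22 (36.1%), against 14.0% of all. TATAAA on the sense strand stood in 9.84% of the members' promoters and in 8.88% of all. AAGATGGC on either strand stood in 6.56% and in 2.88%. A match is a description of these letters, and a run that begins a few bases from the annotated start is missed by the count.

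The members' levels spanned a wide range. In all, 71 members had 1 RefSeq transcript and 11 had several, and no member with several exceeded 9.36 TPM in any library. A minimum of 1 TPM in at least 2 libraries was passed by 73 members, and 70 were at 1 TPM or more in all 8. The 9 that did not pass were Rpl19, Rpl22, Rpl30, Rpl31, Rpl35a, Rpl38, Rpl3l and Rps27a, each with several transcripts, and Rpl26, which has 1 and was listed at 0 throughout. None of the 9 exceeded 1.90 TPM. Mean TPM was 1000 or more for 19 members and under 10 for 15.

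Rps14, a small subunit protein, had the highest mean, 5356 TPM. It stood at 7024, 5402, 4034 and 3380.5 TPM in CPF libraries in stage order, and at 3756, 7190.4, 5968 and 6091 TPM in DMSO libraries. It was the highest member in 7 libraries, and Rpl7 of the large subunit was highest in CPF E14.5. Rpl7 averaged 4699.5 TPM, Rpl41, the shortest ribosomal protein, 3837 TPM and Rpl32 3361 TPM. The acidic stalk protein Rplp0, which helps recruit elongation factors, averaged 2110.0 TPM. At the other end stood Rps13 at 15.1 TPM, Rpl21 at 18.6 TPM and Rpl29 at 4.68 TPM. Rps13 and Rpl21 belong to the small and the large subunit of every ribosome, yet their values were far below that of Rps14.

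The level went with how much of a gene's coding sequence other genes also hold. The share of coding 50-mers found in GENCODE M21 transcripts of other genes was computed for 69 members with 1 transcript that passed the filter. For 23 members every 50-mer was shared, with a median of 14 other genes, and their median mean level was 74.4 TPM with 1 at 1000 TPM or more (Rpl41). The 28 members with 75% to under 100% shared had a median of 362 TPM, and 6 of them reached 1000 TPM. The 18 members with under 75% shared had a median of 1836 TPM, and 12 of them reached 1000 TPM. Rps3 shared 8.05% of its 50-mers, Rpl8 8.69%, Rpl4 20.2% and Rps14 51.4%. Rpl21 and Rps13 shared 100% and 99.3%. Over the 69 members Spearman's rho of mean level and share was -0.52, against 0.043 for the level and coding GC content. For the level and coding length it was 0.052 over 68 members. Rps4l has no annotated coding sequence, so its whole transcript was used and it was left out of the last value. The members share libraries and these values are descriptions. The sources used here do not say how the authors treated reads that match several genes, so a low TPM of a shared member cannot be told apart from reads left out or split. Rpl39l and Rpl10l, paralogs with hardly any shared sequence, were low as well.

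**Figure D1:**
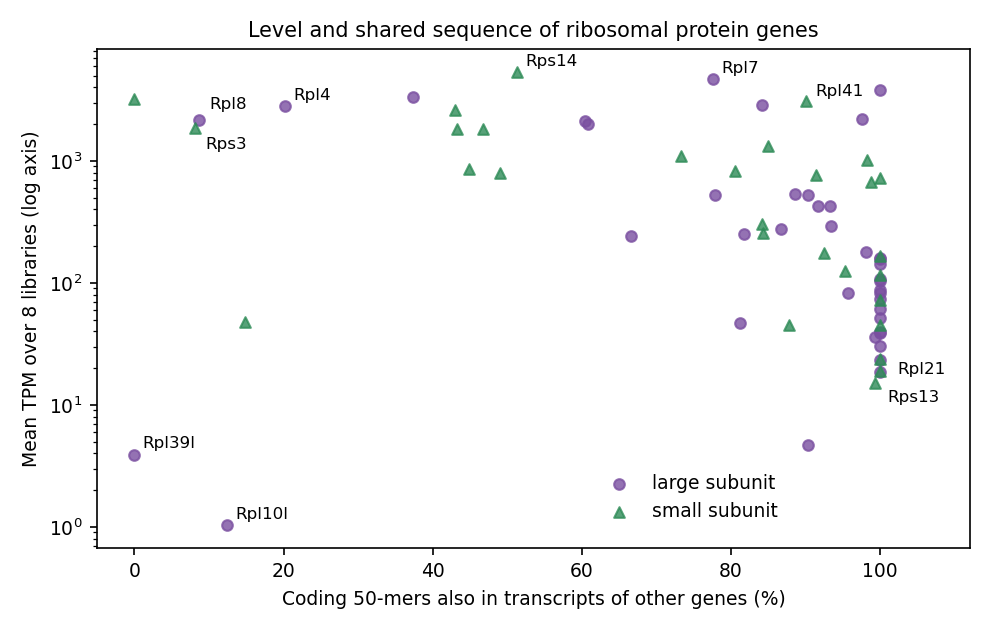
Mean TPM over 8 libraries (log axis) of each member with 1 transcript that passed the filter, against the percent of its coding 50-mers also present in transcripts of other genes; circles are large and triangles small subunit genes. Members with little sharing lie mostly above 1000 TPM, and those at 100% mostly near 74.4 TPM, with Rpl41 above and Rpl39l and Rpl10l as low members with little sharing.

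Together the members made up a sizeable part of each library. Their summed share of TPM was 6.89, 6.98, 5.72 and 4.91% in CPF libraries in stage order, and 5.24, 7.20, 5.48 and 5.87% in DMSO libraries. The CPF share fell in order after E14.5, and the ranges of the agents overlapped, with 6.12 ± 0.994% in CPF and 5.95 ± 0.874% in DMSO libraries (SD over the 4 stages, n = 4 each). When values were rescaled to coding transcripts, which takes out Rpph1, Rmrp and other noncoding RNA, the shares were 9.34, 9.59, 7.82 and 6.63% in CPF libraries, against 6.96, 10.3, 8.67 and 10.999% in DMSO libraries. On that scale CPF was higher at E12.5 and lower at the other stages, and the gap was widest at E18.5. The ratio of large to small subunit sums stayed between 1.01 and 1.20 in CPF libraries and between 1.02 and 1.07 in DMSO libraries. The 10 highest members held 54.3 to 59.997% of the sum in each library, so the sum describes a few genes. In bulk tissue, fewer cells of a type and less RNA per cell cannot be told apart.

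**Figure D2:**
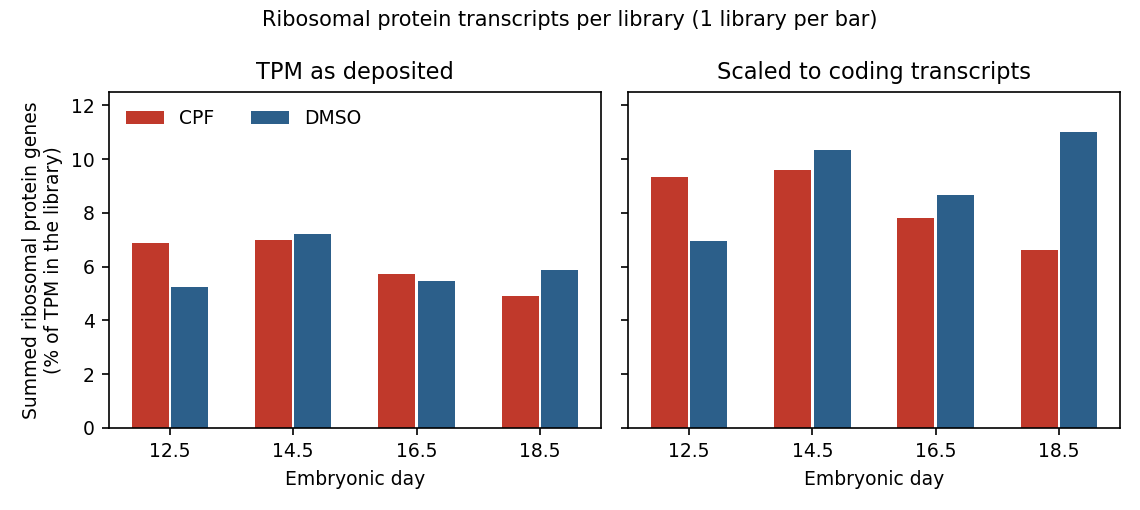
Summed ribosomal protein TPM as a percent of the library, by embryonic day, with 1 library per bar and no error bar because each agent has 1 library per stage. Left, TPM as deposited, with 6.89% in CPF and 5.24% in DMSO at E12.5 and 4.91% and 5.87% at E18.5; right, TPM rescaled to coding transcripts, where the E18.5 bars stand at 6.63% in CPF and 10.999% in DMSO.

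Whether exposure moved the members in the same direction at all stages was asked with limma on log2(TPM + 1), with agent and stage as terms. No member passed an adjusted p of 0.05 in either direction among the 73 tested. Among all 13677 genes tested, 0.154% were called higher and 0.00731% lower in CPF. At an unadjusted p under 0.05, 3 members were higher, Rpl10 and Rps6 among them (8.15% of all genes were), and 1 was lower (Rps24; 1.4% of all genes were). The members' median difference was 0.056, with 45 of 73 above 0, while the median of all genes was 0.15. The rescalings moved the median of all genes to between -0.035 and 0.0065 and the members' median to between -0.11 and -0.074, so the sign of the members' median turned with the scaling. At the unadjusted p, 0 members were higher and 5 to 6 lower under these rescalings, where 5.11 to 7.13% of all genes were higher and 3.87 to 5.75% lower.

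The differences behind these counts were small for most members and uneven among stages for some. Rps6, the substrate of S6 kinase, had 63.5, 93.1, 95.9 and 89.7 TPM in CPF libraries in stage order, against 72.9, 63.0, 43.6 and 54.5 TPM in DMSO libraries. It was higher in CPF from E14.5 on and lower at E12.5, with a log2 difference of 0.55 ± 0.24 (SE; limma adjusted p = 0.487). Rpl10, which joins the large subunit late in assembly, had 242, 152, 84.1 and 60.4 TPM in CPF libraries, against 91.2, 103, 71.0 and 54.0 TPM in DMSO libraries. Its difference was 0.59 ± 0.24 (limma adjusted p = 0.441) and shrank stage by stage. Rps18, in the head of the small subunit, had 58.1, 44.5, 33.2 and 21.9 TPM in CPF libraries, against 61.4, 57.6, 51.1 and 35.3 TPM in DMSO libraries, a difference of -0.43 ± 0.22 (limma adjusted p = 0.597). Among the other members with the most negative differences, Rps16 was at -0.45 ± 0.26, Rpl12 at -0.40 ± 0.22, Rpl29 at -0.38 ± 0.29 and Rps3 at -0.34 ± 0.28, with limma adjusted p values between 0.642 and 0.788.

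Members that kept their direction at 4 of 4 stages were few. There were 6 higher in CPF (8.22% of 73, against 13.8% of all genes), among them Rpl10, Rpl17, Rpl37, Rps13 and Rps23. There were 4 lower in CPF (5.48%, against 3.35% of all genes), which were Rps24, Rps18, Rpl29 and Rpl10a. Rps24, named after its values were seen, went furthest among the lower ones, with 5.23, 4.44, 2.61 and 3.01 TPM in CPF libraries against 8.99, 8.73, 4.81 and 4.40 TPM in DMSO libraries; it has several RefSeq transcripts and its level is low.

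Taken stage by stage, with 1 library per agent and no replicate check, E18.5 stood apart. There the members' median log2 difference was -0.11 while the median of all genes was 0.53, and only 4 of 73 members lay above the all-gene median. No member was over 2-fold higher in CPF at E18.5, where 20.4% of all genes were, and 3 were over 2-fold lower, where 2.02% of all genes were. Rps7, a small subunit protein that also binds Mdm2, was at 51.2 TPM in CPF E18.5 and 114 TPM in DMSO E18.5, a log2 difference of -1.14. Rps3, at the mRNA entry, was at 1127 TPM in CPF E18.5 and 2354 TPM in DMSO E18.5, a difference of -1.06. Rpl3 was at -1.08. Near the upper end stood Rps6 with 0.71.

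The gap between members and all genes at E18.5 was -0.65, and it was -0.72 after rescaling to coding transcripts, -0.70 without Rpph1 and Rmrp and -0.48 after quantile normalization. Under these rescalings between 5 and 13 members lay above the all-gene median at E18.5. Rpph1 and Rmrp took 21.3% of TPM in CPF E18.5 and 41.8% in DMSO E18.5. The summed liver markers there were 804 TPM in CPF and 37.8 TPM in DMSO, the summed erythroid markers 16.0 and 44.7 TPM, and the 6 proliferation markers summed to 1079.8 and 1071 TPM, all on the deposited scale. The part of these in the gap was not tested.

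At the earlier stages the members lay closer to other genes, but at E12.5 most lay on the other side. There 56 of 73 members were above the all-gene median. The gap between the medians was 0.26, and 0.31 after quantile normalization. At E12.5 their median was 0.14, against -0.12 for all genes, and 7 were over 2-fold higher in CPF (6.04% of all genes) while 1 was over 2-fold lower (2.5%). Rpl39, which lines the exit tunnel of the large subunit, had the highest difference there, 1.48, with 3164 TPM in CPF and 1131 TPM in DMSO. At E14.5 the medians were -0.075 for members and 0.027 for all genes, with 4 over 2-fold higher (6.18%) and 1 lower (2.16%). At E16.5 they were 0.046 and 0.13, with 6 over 2-fold higher (7.44%) and 1 lower (3.2%), Rpl35 at -1.04. Rpl39l and Rpl10l were among the higher members at both E14.5 and E16.5. Both passed the filter only through the CPF libraries of these stages, so these counts are not a fair match to the shares of all genes.

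**Figure D3:**
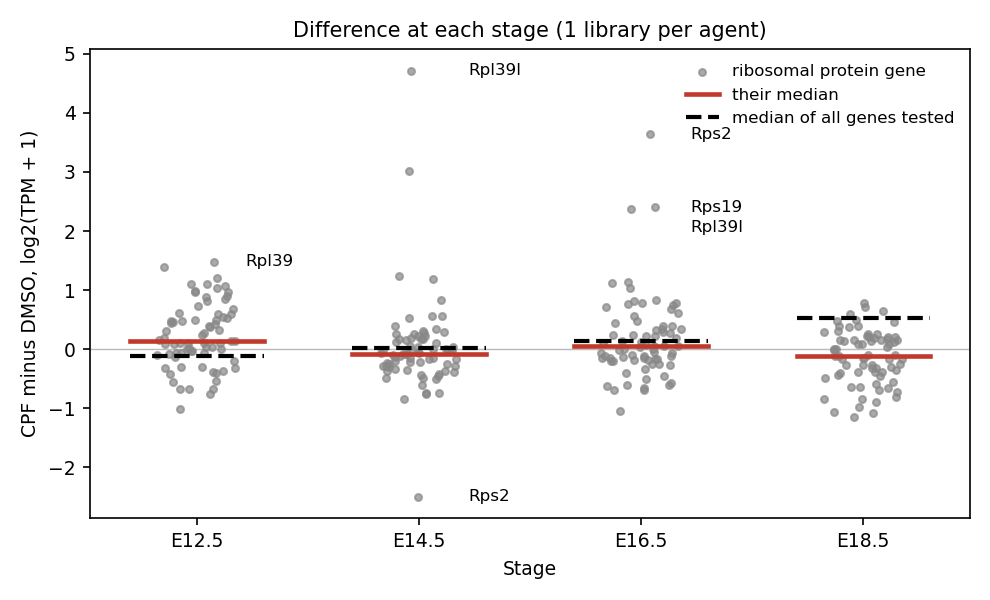
Log2(TPM + 1) difference, CPF minus DMSO, of each of the 73 members at each stage (grey points, spread sideways for visibility), with their median (red line) and the median of all genes tested (dashed line); each stage compares 1 library per agent. At E18.5 the members' median lies at -0.11 and the all-gene median at 0.53, while Rps2 and Rpl39l lie far out at E14.5 and E16.5.

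The spread of the members at E12.5 and E14.5 went with base composition. Spearman's rho of the difference and coding GC content over 69 members was -0.47 at E12.5, -0.39 at E14.5, 0.21 at E16.5 and 0.033 at E18.5. Over 13435 genes it was -0.35, -0.27, 0.26 and 0.058, so the other genes showed the same order. Taken by library, the members highest in GC content, the top 1 of 3 equal groups, stood above the lowest group by -0.20, -0.34, 0.32 and 0.17 in CPF libraries in stage order, and by 0.24, -0.17, 0.00082 and 0.19 in DMSO libraries (median deviation from each gene's own mean, log2). The part of base composition in the members' differences at any stage was not tested. The points share the libraries, and these values are descriptions.

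**Figure D4:**
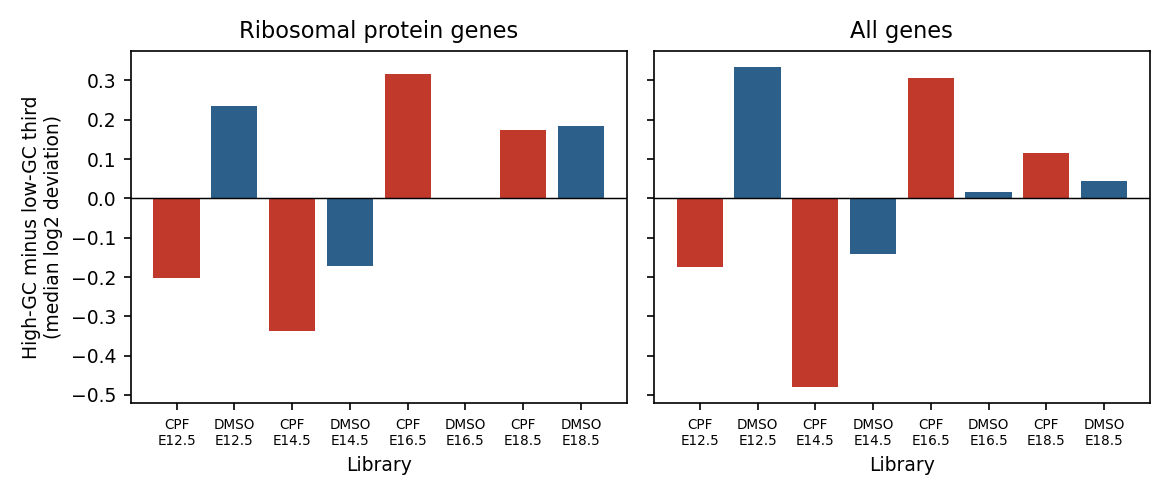
Difference between the highest and the lowest of 3 groups by coding GC content in the median log2 deviation from each gene's mean, by library, for ribosomal protein genes (left) and all genes (right); each bar is 1 library, and the bar of DMSO E16.5 is near 0 in both panels. In both panels the lowest bar is CPF E14.5, at -0.34 for members and -0.48 for all genes. The highest is CPF E16.5 for members (0.32) and DMSO E12.5 for all genes (0.33).

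Whether the difference between agents changed over development was tested as a slope per embryonic day, CPF minus DMSO. No member and no gene of 13677 passed an adjusted p of 0.05 (0% called in each direction). At an unadjusted p under 0.05 the slope was lower for 12 members, against 1.56% of all genes, and higher for 1 (Rpl28), against 24.9% of all genes. The members' median slope was -0.041 log2 per day and that of all genes 0.11. In the 3 rescalings the members with a lower slope at that p numbered 22 to 26, where 3.86 to 6.16% of all genes had one. No member had a higher slope at that p there, where 3.89 to 8.49% of all genes did, and the median of all genes was 0.010 to 0.046. Without the E12.5 DMSO library the count was 2, without the E18.5 CPF library 4 and without the E16.5 DMSO library 7, where in that order 0.541%, 1.48% and 1.16% of all genes had a lower slope. The members' median stayed below that of all genes in each of these fits, and without the E12.5 DMSO library it was above 0, at 0.020 against 0.12.

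Rps3 had the lowest p of these, with 2229, 1818, 1430.1 and 1127 TPM in CPF libraries in stage order, against 1468, 2208, 2209 and 2354 TPM in DMSO libraries. CPF went down stage by stage and DMSO was lowest at E12.5, with a slope of -0.27 ± 0.073 per day (limma adjusted p = 0.132). Rpl39 had 3164, 5465, 2046 and 2161 TPM in CPF libraries, against 1131, 3081, 2692 and 3355 TPM in DMSO libraries, with the most negative slope, -0.38 ± 0.15 (limma adjusted p = 0.163). CPF was higher at E12.5 and E14.5 and lower at E16.5 and E18.5. Rps7 sloped by -0.31 ± 0.0996, Rpl36a by -0.29 ± 0.10, Rps14 by -0.27 ± 0.099 and Rps27l, a paralog of Rps27 that p53 activates, by -0.27 ± 0.11 (limma adjusted p 0.133 to 0.173). On the other side, Rpl28 sloped by 0.18 ± 0.079 and Rps6 by 0.16 ± 0.071 (limma adjusted p = 0.188 and 0.191). Rps3 and Rps14 share 8.05% and 51.4% of their 50-mers, less than most members.

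Between E18.5 and E12.5, with both agents in the fit, 6 members were called lower and 0 higher (3.73% of all genes were called lower and 4.67% higher). At an unadjusted p under 0.05, 19 members were lower (15% of all genes) and 0 higher (9.67%). The members' median difference was -0.32, with 62 of 73 below 0, while the median of all genes was -0.21. Rpl27 of the large subunit fell, at 24.9 TPM in CPF E18.5 and 31.5 TPM in DMSO E18.5, against 78.0 TPM in CPF E12.5 and 72.5 TPM in DMSO E12.5. Its difference was -1.39 ± 0.31 (limma adjusted p = 0.0170). Rps16, which reaches toward the peptidyl tRNA, fell by 1.501 ± 0.36 (limma adjusted p = 0.0228), with 7.36 and 11.3 TPM at E18.5 against 27.9 and 27.6 TPM at E12.5 (CPF then DMSO). Rps29 fell by 1.43 ± 0.36 (limma adjusted p = 0.0275), with 13.5 and 10.2 TPM at E18.5 against 29.96 and 37.0 TPM at E12.5. In each of these 3 both E18.5 libraries lay below both E12.5 libraries.

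The other calls were Rpl10, Rps12 and Rpl10a. Rpl10 fell by 1.36 ± 0.34 (limma adjusted p = 0.0258), with a log2 change of -1.98 in CPF and -0.74 in DMSO. Rps12, in the beak of the small subunit, fell by 1.27 ± 0.33 (limma adjusted p = 0.0343), with -1.88 in CPF and -0.66 in DMSO. Rpl10a, in the L1 stalk, fell by 0.99 ± 0.28 (limma adjusted p = 0.0482), with -1.11 in CPF and -0.86 in DMSO. None of the members rose by the test; the most positive were Rpl39 at 0.51 ± 0.48, Rps19 at 0.29 ± 0.62, Rpl36 at 0.20 ± 0.28, Rpl32l at 0.19 ± 0.39 and Rpl39l at 0.19 ± 1.29, all with limma adjusted p of 0.554 or more.

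In the main fit all 6 called members share every coding 50-mer with other genes, as did those called in the 3 rescalings. Other settings also called members with less sharing. With a pseudocount of 0.1 these were Rps18 (87.8% shared) and Rps26 (73.2%), and a mean of at least 5 TPM added Rps4l (14.9%) among others. In the main fit Rps18 was at -1.07 ± 0.31 and Rps26 at -1.23 ± 0.35 (limma adjusted p = 0.0532 and 0.0509). Among the 23 members with every 50-mer shared the median difference was -0.65 with 21 below 0. Among the 28 with 75% to under 100% shared it was -0.39 with 24 below 0 and no call. Among the 18 with less sharing it was -0.14 with 14 below 0 and no call. After rescaling to coding transcripts the 3 medians were -0.41, -0.14 and 0.094, in the same order but with the sign turned in the least shared class. Over 69 members Spearman's rho of the difference and the share was -0.44. The high members Rps14 and Rpl32 were not among the called, and the part of shared reads in the change was not tested. Proliferation markers summed to 1079.8 and 1071 TPM at E18.5 against 2139 and 1778 TPM at E12.5, and erythroid markers to 16.0 and 44.7 TPM against 36696 and 8036 TPM (CPF then DMSO). The 8 skeletal muscle markers summed to 20.1 and 6.18 TPM at E18.5 against 665 and 194 TPM at E12.5. The part of these tissues in the change was not tested.

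**Figure D5:**
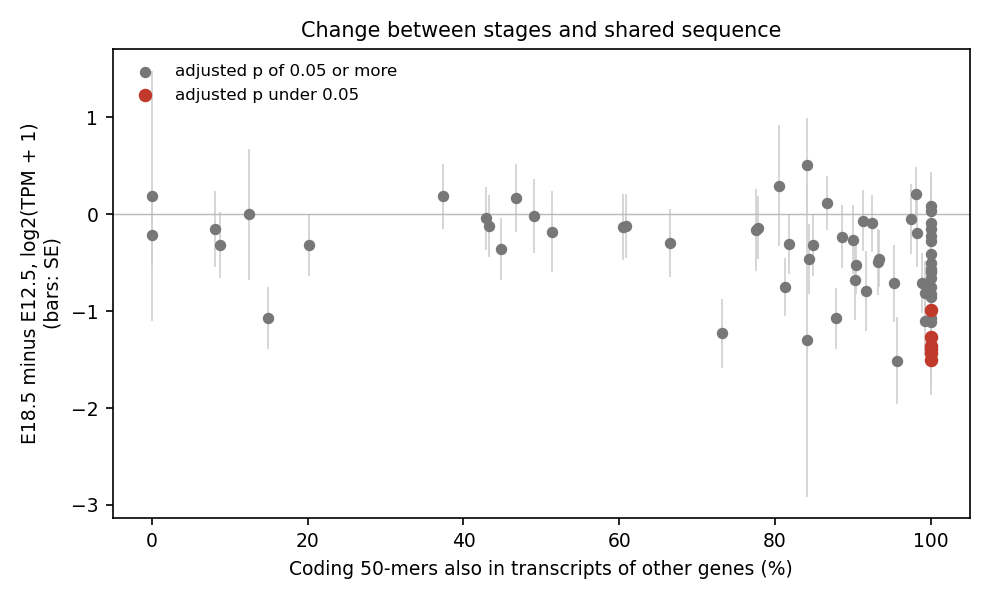
E18.5 minus E12.5 difference on the log2(TPM + 1) scale with its standard error (bars) for members with 1 transcript, against the percent of coding 50-mers shared with other genes; red points passed an adjusted p of 0.05. The 6 red points all lie at 100%, between -0.99 and -1.501, and the points with under 75% sharing have a median of -0.14.

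The calls depended on libraries and scaling. Fewer of the 6 passed in each fit that left out a library, whichever of the 8 it was. Leaving out a library of E12.5 or E18.5 also leaves 1 library at that compared stage. The members' median was -0.42 without CPF E12.5 (all genes -0.38) and -0.28 without CPF E18.5 (all genes -0.45). It was -0.65 without DMSO E12.5 (all genes -0.035) and -0.48 without DMSO E18.5 (all genes 0.026). Rescaling to coding transcripts kept 3 (Rpl27, Rps16 and Rps29), and quantile normalization kept Rps29. All 6 were below 0 in each of these fits. Between stages within an agent, the members' median was -0.65 in CPF, where the median of all genes was 0.092, and -0.36 in DMSO, where it was -0.51. In CPF 21 members were over 2-fold lower at E18.5 (9.81% of all genes) and none was over 2-fold higher (17.3%). In DMSO 8 were over 2-fold lower (21.2%) and 1, Rpl39, was over 2-fold higher (6.68%). The direction was shared by 37 members below 0 in both agents (38% of all genes) and 4 above 0 in both (19.3%), which were Rpl23, Rpl32, Rpl36 and Rps19. Rps14 showed the split, with -1.05 in CPF and 0.70 in DMSO.

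The tissue-restricted paralogs of the family appeared in a pair of CPF libraries. Rpl39l and Rpl10l are known from mouse male germ cells, where Rpl10l stands in for the X-linked Rpl10. Rpl39l was listed at 0, 25.3, 5.45 and 0 TPM in CPF libraries in stage order, against 0, 0, 0.252 and 0.303 TPM in DMSO libraries. Rpl10l was listed at 0, 7.08, 1.19 and 0 TPM in CPF libraries and at 0 in all DMSO libraries. With the read step estimated from the low values, the amounts in CPF E14.5 stand for about 216 reads of Rpl39l and 76.7 reads of Rpl10l, and those in CPF E16.5 for about 54.0 and 15.0 reads. Both passed the filter only through these libraries. In the fit across stages Rpl39l differed by 1.68 ± 0.91 (limma adjusted p = 0.677) and Rpl10l by 1.04 ± 0.48 (limma adjusted p = 0.549), sizes that depend on the pseudocount of 1.

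The coding sequences of Rpl39 and Rpl39l, from GENCODE M21, show how far the paralog differs from the gene. Capitals mark the 23 of 156 bases at which they differ, an identity of 85.3%.
Rpl39, chromosome X: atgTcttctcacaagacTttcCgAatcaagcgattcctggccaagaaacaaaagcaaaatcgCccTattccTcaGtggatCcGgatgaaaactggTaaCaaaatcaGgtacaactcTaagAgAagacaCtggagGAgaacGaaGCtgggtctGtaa
Rpl39l, chromosome 16: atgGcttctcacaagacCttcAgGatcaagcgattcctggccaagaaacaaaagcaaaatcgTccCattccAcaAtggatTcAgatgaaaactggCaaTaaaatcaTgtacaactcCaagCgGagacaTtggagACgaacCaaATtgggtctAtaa
No 50-mer of Rpl39l was found in a transcript of another gene. It made up 0.46% of the summed TPM of the pair in CPF E14.5, and Rpl10l made up 4.46% of its pair with Rpl10. Markers of several other tissues were high in the same libraries. The 6 adrenal cortex markers summed to 372 and 450.1 TPM in CPF E14.5 and E16.5, to 21.1 and 10.9 TPM in CPF E12.5 and E18.5, and to at most 20.4 TPM in DMSO libraries, and the liver markers were highest there too. Of the germ cell markers, Dppa3 was at 115 TPM in CPF E14.5 and at most 1.39 TPM in the other CPF libraries and 0.149 TPM in DMSO libraries. Mael was at 59.3 and 13.1 TPM in CPF E14.5 and E16.5, and at most 0.734 TPM in DMSO libraries. The sum of the 7 germ cell and gonad markers was 10.3, 294, 44.2 and 65.7 TPM in CPF libraries in stage order, against 10.9, 10.9, 16.3 and 24.8 TPM in DMSO libraries, with Sycp3 making up most of it at E18.5. Ddx4 was at or near 0 in all 8 libraries, and Dazl reached 1.24 TPM only in CPF E14.5. The part of germ cell, adrenal or liver RNA in the paralogs' values was not tested.

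Other paralogs differed in their share of the pair. Rps27l averaged 799.8 TPM and made up 98.5 to 99.5% of its pair with Rps27, which has several transcripts and did not exceed 9.36 TPM. Rpl36al, outside the symbol rule, made up 85.4 to 90.7% of its pair with Rpl36a, and Rpl22l1 at least 99.9% of its pair with Rpl22. Rpl22 also has several transcripts and did not exceed 0.146 TPM. No member with several transcripts exceeded 9.36 TPM. The high shares of Rps27l and Rpl22l1 therefore cannot be told apart from failed estimates of their partners. Rps4l made up 1.03 to 3.47% of its pair with Rps4x, and Rpl7l1 2.22 to 5.51% of its pair with Rpl7, both highest in DMSO E12.5. Rpl3l, known from striated muscle, did not exceed 0.361 TPM.

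Rps2 and Rps19 varied most among the abundant members. Rps2, at the mRNA entry of the small subunit, had 279.9, 133, 321 and 122 TPM in CPF libraries in stage order, against 566, 755, 24.8 and 213 TPM in DMSO libraries. The highest library was 30.4-fold above the lowest, and CPF was lower at E12.5, E14.5 and E18.5 and higher at E16.5. It shares 84.2% of its 50-mers with 71 other genes. Rps19 had 752, 1070.3, 1043 and 1066 TPM in CPF libraries, against 981, 455, 196 and 1040.1 TPM in DMSO libraries. CPF exceeded DMSO at E14.5 and E16.5, and the agents were near each other at E18.5; across stages the difference was 0.82 ± 0.44 (limma adjusted p = 0.648). The median member with 1 transcript varied 2.08-fold between its lowest and highest library. Among members with a mean of at least 100 TPM the median was 1.87-fold over 46 genes, against 2.09-fold over 1344 genes of that level.

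Genes that make and regulate ribosomes were set beside the members. Of 34 ribosome assembly factors 27 were tested, and between E18.5 and E12.5 7 were called lower and 0 higher, with a median of -0.99. Among all genes tested 3.73% were called lower and 4.67% higher, with a median of -0.21. Nop56, of the box C/D particles that methylate ribosomal RNA, fell by 1.43 ± 0.29 (limma adjusted p = 0.00843). Ncl, the nucleolar protein nucleolin, fell by 1.55 ± 0.35 (limma adjusted p = 0.0167). The number called was 1 without the E18.5 DMSO library, 2 without the E12.5 DMSO library and 4 without either E16.5 library. Of 20 translation factors and other TOP messages 19 were tested and 1 was called lower, Nap1l1 at -1.31 ± 0.30 (limma adjusted p = 0.0168), with a median of -0.45. It was lost without the E12.5 CPF or the E18.5 DMSO library. Eef1a1, the elongation factor, was at 0.0011 ± 0.36 and Rack1, a protein of the small subunit, at 0.091 ± 0.32. None of 11 tested RNA polymerase I genes (median -0.53), 72 mitochondrial ribosomal protein genes (median -0.24) or 11 regulators (median -0.25) was called. Nor was any of 7 tested genes listed as ribosomal proteins outside the rule (median -0.52). That list includes Rps19bp1, which is not itself a ribosomal protein and was the lowest of the list, at -0.94 ± 0.36. For CPF against DMSO and for the slope no gene of these lists was called; the lists' median differences between agents were 0.020 to 0.19 and their median slopes 0.039 to 0.22 per day. In that slope the members' median of -0.041 was the only median below 0 among the 7 lists. The members' median was 0.020 without the E12.5 DMSO library. In the list outside the rule, 4 of 7 tested genes sloped above 0, Rps19bp1 and the low Fau (3.66 TPM) among them. The others were abundant and sloped below 0: Rpl22l1 by -0.35 ± 0.12, Rps3a1 by -0.23 ± 0.14 and Rpl36al by -0.21 ± 0.11. The difference between lists was not tested.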

How the data were processed

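The values are TPM per RefSeq transcript, deposited by the authors as 1 table per library with 32862 transcripts each. Per the submitters' processing notes, Trimmomatic, STAR and mm10 were used, without versions, and read assignment is not described there. Libraries were made from 2 μg of RNA per the labels' protocols, and each sums to 1000000 TPM. Transcripts were summed per symbol.

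Genes with at least 1 TPM in at least 2 libraries (13677) were tested on log2(TPM + 1) with limma 3.58.1 in R 4.3.3 (trended, robust), with Benjamini-Hochberg adjustment over all genes and calls at 0.05. Agent and stage were terms in 2 comparisons (3 residual degrees of freedom); the slope model had agent, day and their product (4). The stage term pairs the libraries by day of collection. With 1 library per agent and stage, p-values measure the spread left around these models. The code was tested on simulated data. There a log2 change of 1 was called for 22% of changed genes for CPF minus DMSO and for 0% for E18.5 minus E12.5. A change of 2 was called for 82% and 52%, and a slope of 0.5 per day for 50%. An absence of calls therefore does not show an absence of change.

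Coding sequences for GC content and shared 50-mers came from GENCODE M21, promoters from RefSeq on GRCm38.p6. Where a transcript had no annotated coding sequence, as for Rps4l, the whole transcript was used. Alternatives were quantile normalization, rescaling to coding transcripts or without Rpph1 and Rmrp, a pseudocount of 0.1, other filters, the highest transcript per symbol and leaving out libraries; correction for GC content was added after seeing the data. The members and lists were chosen with earlier results of these data known. Genes named were, in each comparison and direction, up to 10 called members with 1 transcript by p, filled to 5 with the largest differences, plus the 5 highest and 5 lowest by mean, and the paralogs with their partners; several further members were named after their values were seen. From the other lists, the 2 called genes with the lowest p or, failing these, the 2 highest by mean were named. Some members' values are not reported here.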

Additional observations from a re-analysis of the deposited data

Results flagged for a closer look

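In each agent's 4 libraries, 30 members named by rule and the summed share were screened for a library far from the other 3, which chance alone gives in about 1 of 20 groups. Of 62 groups, 5 had such a library. Members were named partly by their differences in these same libraries, so this count cannot be set against that rate. Rpl10l stood at 7.08 TPM in CPF E14.5, with the other CPF libraries at 0, 1.19 and 0 TPM. Rps19 stood at 752 TPM in CPF E12.5, with the other CPF libraries at 1043 to 1070.3 TPM. Rpl28 stood at 52.6 TPM in DMSO E12.5, with the other DMSO libraries at 29.6 to 31.5 TPM. Rpl36a stood at 125 TPM in DMSO E14.5, with the other DMSO libraries at 62.5 to 71.2 TPM. Rps3 stood at 1468 TPM in DMSO E12.5, with the other DMSO libraries at 2208 to 2354 TPM. The libraries of an agent differ in stage, so a far value and a stage cannot be told apart.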

How the results depend on the processing

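No member was called for CPF against DMSO or for the slope under any alternative that was run. The model without the stage term (no replicate block) also called 0; its median of -0.095 relative to all genes is the same by construction, since each stage has 1 library per agent. Leaving out either E18.5 library turned that relative median to 0.12. The 6 members called lower between E18.5 and E12.5 were 1 after quantile normalization (3.90% of all genes), 3 without Rpph1 and Rmrp (2.70%), 0 without the filter, 11 with a mean of at least 5 TPM (622 of 9572 genes), 2 with agent left out (2.35%), and 0 to 10 when libraries were left out in turn, lowest without CPF E12.5 (0) and without CPF E18.5 (1). Without the filter limma called none of 24151 genes in that comparison. At an unadjusted p under 0.05, 26 of the 82 members were then lower, as were 10.5% of all genes. The 7 assembly factors called lower were 16 with a mean of at least 5 TPM, 17 after GC correction and 0 without the filter.

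The summed share in percent, rescaled to coding transcripts, was 9.34, 9.59, 7.82 and 6.63 in CPF and 6.96, 10.3, 8.67 and 10.999 in DMSO. Without Rpph1 and Rmrp it was 8.53, 8.80, 7.31 and 6.24 in CPF and 6.51, 9.43, 7.95 and 10.1 in DMSO.

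Differences that changed sign were those of members not called. Without E14.5 and E16.5, CPF minus DMSO was -0.19 for Rpl39l and -0.17 for Rps19. For E18.5 minus E12.5, leaving out DMSO E12.5 gave -0.27 for Rpl39. Leaving out DMSO E18.5 gave -0.13 for Rpl39, -0.23 for Rps19, -0.0028 for Rpl36 and -1.18 for Rpl39l. Leaving out CPF E12.5 gave -0.51 for Rps19, -0.081 for Rpl32l and -0.93 for Rpl39l. After GC correction with rescaling to coding transcripts the slope of Rpl8 was -0.020. GC correction gave 32 members with a lower slope at an unadjusted p under 0.05, against 12 without it, and 5.81% of all genes against 1.56%. The cause of these changes was not tested.

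Read depth is unknown, each agent has 1 library per stage, and many members share their sequence with other genes, so small differences between single libraries could not be separated from technical variation.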
